A study of Mus musculus with 2 samples.

Results

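Rab small GTPases were examined in mouse embryos injected with a small interfering RNA against Dnmt1 (siDnmt1) and in embryos injected with a scrambled siRNA (siScrambled). All embryos were of the C57BL/6 background. Each group was 1 RNA-seq library from a pool of 20 whole embryos at the 4 to 8-cell stage, so no difference given here could be checked against replicates. Rab genes were taken by name: a symbol that is Rab, a digit and at most 2 further letters or digits, leaving out genes of Rab-binding or Rab-activating proteins. The rule gave 58 of the 23418 rows of the deposited count table. Of these, 51 had a count in at least 1 library, and 24 reached a mean of 20 counts over both libraries and were compared between them.

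Rab proteins are small GTPases of the Ras superfamily that give membranes of the secretory and endocytic pathways their identity. A newly made Rab is bound by an escort protein, receives geranylgeranyl lipids at its C-terminus and is carried to and from membranes by GDP dissociation inhibitors. Exchange factors load it with GTP on its membrane, effectors such as tethers and motors bind the GTP form, and GTPase-activating proteins switch it off. In the early embryo these routes serve uptake from the surroundings, the remodelling of stored maternal material and, from the 8-cell stage, the apical and basolateral surfaces of polarising blastomeres.

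The libraries held 12236615 (siDnmt1) and 11675483 (siScrambled) counts, of which the ribosomal RNA precursor Rn45s took 37.3% and 29.9%. Dnmt1 itself had 687 counts in siDnmt1 and 847 in siScrambled, and 38.3% of the 7315 genes compared lay as low or lower on the log2 scale. Embryo markers were present in both libraries, with Pou5f1 at 1489 and 2152 counts and Tead4 at 2455 and 2202 in siDnmt1 and siScrambled, although Sox2 had 0 in both. Cumulus and granulosa cell markers summed to 2 and 0 counts, with 9 of 10 at 0 in both libraries. Blood and immune markers summed to 17 and 8 counts, with the 3 haemoglobin genes listed at 0. Markers of fibroblasts and oviduct epithelium summed to 97 and 260 counts, of which Epcam, an adhesion gene that embryonic cells also express, held 97 and 258. Of the 15 embryo and oocyte markers, which summed to 8949 and 9101 counts, 11 were compared, with 1 at least 2-fold higher (Tdgf1, 344 and 163) and 2 at least 2-fold lower (Dppa3, 70 and 194, and Zp3, 13 and 42). Oocyte-derived genes were mostly lower in siDnmt1, with Nlrp5 at 189 and 257 counts, Bmp15 at 3 and 19 and Ooep at 0 and 15. For these genes, and for Zp3 and Dppa3 given above, the interval for counting error, explained below, lay below equality. Padi6 was higher, at 51 and 29 counts, with an interval above equality (1.09 to 2.88). Gdf9, at 27 and 24 counts, had an interval that includes equality (0.625 to 2.04). Whether the pools differed in stage was not tested. In whole embryos, fewer cells expressing a gene and less RNA per cell cannot be told apart.

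Log2 ratios are log2((siDnmt1 + 5)/(siScrambled + 5)), so that a positive value is higher in siDnmt1. A gene was counted as higher or lower at 2-fold or more on this scale. Folds are plain ratios of counts, and ranges in brackets are 95% Clopper-Pearson intervals of that ratio. They cover counting error only and not amplification or differences between pools.

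Of the 24 Rab genes compared, 3 (12.5%) passed 2-fold upward in siDnmt1 and 5 (20.8%) downward. The shares over all genes compared were close to these, 12.5% upward and 16.7% downward. The higher genes were Rab5b, Rab11b and Rab24, and the lower genes were Rab40c, Rab7, Rab2a, Rab20 and Rab5a. Rab5a lay at the threshold itself, with a log2 ratio of -1. The median log2 ratio of the 24 was 0.06, against -0.02 over all genes compared, and 12 genes had more counts in siDnmt1 while 12 had fewer. The middle 50% of the Rab genes spanned log2 ratios of -0.57 to 0.62, close to the -0.67 to 0.57 of all genes. The counting interval excluded equality for 9 Rab genes upward and 9 downward (37.5% each), against 35.4% and 37.0% of all genes.

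**Figure D1:**
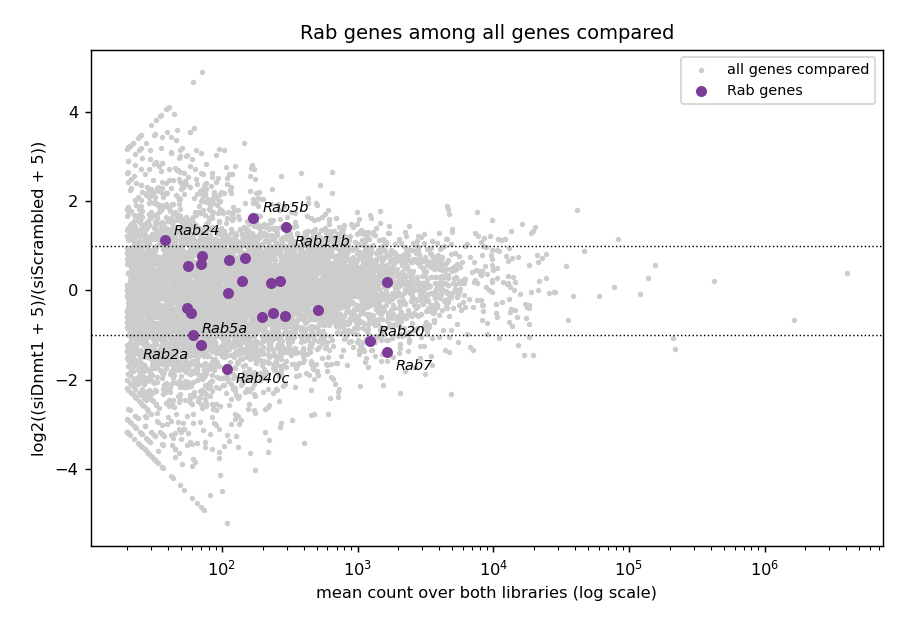
Log2 ratio of siDnmt1 over siScrambled (vertical axis) against the mean count over both libraries (horizontal axis, log scale) for the 7315 genes compared (grey) and the 24 Rab genes (purple), with dotted lines at 2-fold. The 8 named Rab genes lie at or beyond 2-fold, from -1.75 for Rab40c to 1.63 for Rab5b, inside the spread of the other genes.

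The promoters of the highest and lowest Rab genes and of the Rab5 pair that differed in opposite directions are shown, since Dnmt1 acts on cytosines in CpG dinucleotides. No methylation was measured in these libraries. The sequences are the 250 bases before the annotated start, 5′ to 3′, from RefSeq on GRCm38.p6, and capitals mark CpG. They lie at chr10:128696269-128696518 (minus strand), chr17:53478984-53479233 (plus strand) and chr17:25919715-25919964 (minus strand).
Rab5b: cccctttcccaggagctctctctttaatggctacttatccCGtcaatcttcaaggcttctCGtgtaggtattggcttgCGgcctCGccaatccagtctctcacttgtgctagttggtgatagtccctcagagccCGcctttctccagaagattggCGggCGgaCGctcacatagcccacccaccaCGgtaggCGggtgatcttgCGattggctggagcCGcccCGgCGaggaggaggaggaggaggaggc
Rab5a: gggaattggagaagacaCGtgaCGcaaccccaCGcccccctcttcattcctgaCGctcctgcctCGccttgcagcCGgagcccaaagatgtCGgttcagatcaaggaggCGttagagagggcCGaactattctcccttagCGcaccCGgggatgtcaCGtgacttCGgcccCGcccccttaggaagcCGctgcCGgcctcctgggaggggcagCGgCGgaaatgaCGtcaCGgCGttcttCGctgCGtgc
Rab40c: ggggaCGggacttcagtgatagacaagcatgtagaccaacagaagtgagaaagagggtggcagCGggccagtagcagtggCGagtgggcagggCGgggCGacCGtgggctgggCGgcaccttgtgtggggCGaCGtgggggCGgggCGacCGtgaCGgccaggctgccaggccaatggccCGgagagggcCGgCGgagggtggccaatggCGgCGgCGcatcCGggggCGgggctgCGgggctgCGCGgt
The Rab5b promoter held 14 CpG, and 29.4% of the 32851 promoters of this length in the table held as many or more. The Rab5a promoter held 23 (13.3% of promoters) and that of Rab40c 24 (12%). Over the 22 compared Rab genes with a promoter in the table, taking the start richest in CpG for each, the median was 23 CpG and the range 9 to 42. The median over the 5825 genes compared that had an entry was 18. Rab11b, the second highest of the Rab genes compared, had the fewest CpG of the 22, with 9, while Rab7 had 29. Rab24, also higher, had 27, and Rab20, also lower, had 12, so that the called genes did not sort by CpG number. The 3 higher genes had a median of 14 CpG, the 4 lower genes with an entry 23.5 and the 15 genes within 2-fold 23. These are counts of letters in 1 window per gene and carry no test.

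Most Rab counts, not adjusted for length, came from few genes. The 58 rows summed to 6953 counts in siDnmt1 and 9059 in siScrambled, which is 0.0906% and 0.111% of the counts without Rn45s. Rab8a, Rab7 and Rab20 together held 49.5% of the Rab counts in siDnmt1 and 62.0% in siScrambled. Rab7 made up 13.2% of the Rab counts in siDnmt1 (95% Clopper-Pearson interval 12.4 to 14.0%) and 26.3% in siScrambled (25.3 to 27.2%). Rab8a made up 25.2% (24.2 to 26.3%) and 17.1% (16.3 to 17.9%). The Rab sum was 1.30-fold lower in siDnmt1 (1.26 to 1.34). Without Rab7, Rab8a and Rab20 it was 3513 counts in siDnmt1 and 3442 in siScrambled, a ratio of 1.02 (0.973 to 1.07).

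Levels of different genes were set side by side as counts per kb of the longest annotated transcript, which may not be the one these embryos used. On this scale Rab20 was the highest in both libraries, with 552 counts per kb in siDnmt1 and 1213 in siScrambled. Rab7 followed with 425 and 1101, and Rab8a with 385 and 341. Rab1 had 152 and 208, and Rab5c 147 and 126 counts per kb. The 5 genes thus stood in the same order in both libraries. At the other end, the lowest gene compared was Rab5a in siDnmt1, with 12.1 counts per kb there and 25.7 in siScrambled, and Rab24 in siScrambled, with 29.9 in siDnmt1 and 12.2 there.

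**Figure D2:**
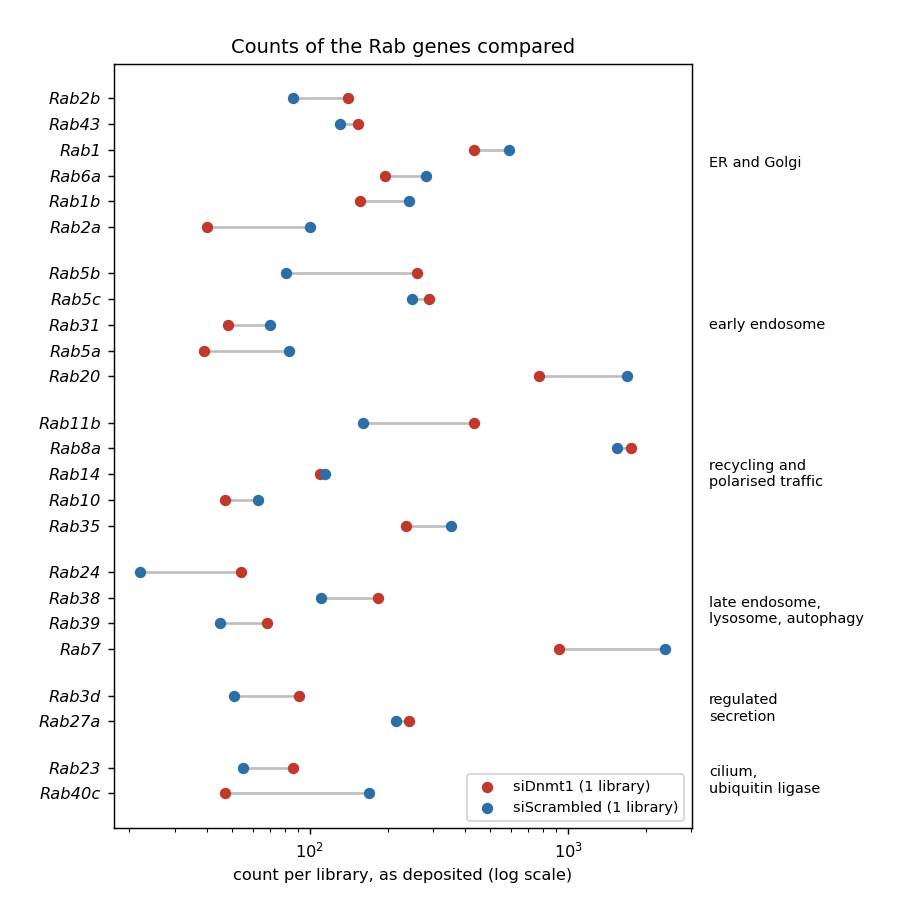
Counts as deposited (horizontal axis, log scale) of the 24 Rab genes compared, by the route they serve, in the siDnmt1 library (red) and the siScrambled library (blue), with 1 library each. Rab7 and Rab20 stand well to the left in siDnmt1 (918 and 768 counts, against 2378 and 1689), whereas Rab8a is near 1754 and 1550 in both.

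Of the 6 compared Rab genes of the endoplasmic reticulum and Golgi, 1 was at least 2-fold lower in siDnmt1, the same share as the 16.7% over all genes, and 0 were higher. Rab2a, which acts between the endoplasmic reticulum and the Golgi, had 40 counts in siDnmt1 and 100 in siScrambled, 2.50-fold lower (1.72 to 3.70). Its paralog Rab2b had 141 and 86 counts, a ratio of 1.64 (1.25 to 2.17). The 2 genes therefore stood on opposite sides of equality. Rab1 and Rab1b, which drive the first step of export from the endoplasmic reticulum, had 431 and 157 counts in siDnmt1 and 589 and 241 in siScrambled. Their ratios were 1.37 (1.21 to 1.55) and 1.54 (1.25 to 1.89) downward, within 2-fold. Rab6a, of traffic within and out of the Golgi, had 196 counts in siDnmt1 and 282 in siScrambled, and Rab43, another Golgi Rab, 153 and 131. Below the mean of 20 counts, Rab30, a Golgi Rab, had 13 counts in siDnmt1 and 0 in siScrambled. That is at least 4.33-fold higher when siScrambled is set at a floor of 3 counts per library, without the counting error of the 13. Rab33b had 5 and 15 counts, Rab6b 1 and 11 (ratio 11 downward, 1.60 to 473), Rab18 14 and 12, Rab19 5 and 1, Rab36 1 and 0 and Rab33a 0 and 1.

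Of the 5 compared Rab genes of early endosomes, 1 was at least 2-fold higher, the highest of the Rab genes compared, and 2 were lower. Over all genes the shares were 12.5% and 16.7%. Rab5b had 261 counts in siDnmt1 and 81 in siScrambled, 3.22-fold higher (2.50 to 4.19). Rab5a had 39 and 83 counts, 2.13-fold lower (1.44 to 3.20), and Rab5c 290 and 248, with an interval that includes equality (0.984 to 1.39). The 3 genes encode close forms of the same GTPase, which controls the fusion of early endosomes. Rab20, found on endosomes and maturing phagosomes, had 768 counts in siDnmt1 and 1689 in siScrambled, 2.20-fold lower (2.02 to 2.40). With the trend on transcript length removed, its log2 ratio of -1.13 became -0.43. Rab31, of traffic between the trans-Golgi and endosomes, had 48 and 70 counts. Rab22a (20 and 13) and Rab21 (6 and 2), both of the early endosome, lay below the mean, and Rab17 had 0 in both.

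Ratios between paralogs within a library do not depend on its depth, and 5 such pairs had both genes compared. Rab5b had 6.69 times the counts of Rab5a in siDnmt1 and 0.976 times in siScrambled, so the ratio of these ratios was 6.86 (95% conditional exact interval 4.25 to 11.1, counting error only). Rab2b had 3.53 times the counts of Rab2a in siDnmt1 and 0.860 times in siScrambled, a ratio of ratios of 4.10 (2.54 to 6.64). In counts not adjusted for length, both pairs were closer to parity in siScrambled. Per kb of the longest transcript, Rab5b and Rab5a stood at 82.1 and 12.1 in siDnmt1 and at 25.5 and 25.7 in siScrambled. On that scale Rab2b and Rab2a stood at 39.4 and 18.8 in siDnmt1 and at 24.0 and 46.9 in siScrambled, apart in both libraries. With the length trend removed, the differences in log2 ratio of these 2 pairs, 2.63 and 1.90, were 2.63 and 1.68. Rab5b relative to Rab5c gave 2.76 (2.02 to 3.78) and Rab5c relative to Rab5a 2.49 (1.61 to 3.88). Rab1 relative to Rab1b gave 1.12 (0.881 to 1.43), an interval that includes equality. The 3 Rab5 pairs share genes and are not independent. GENCODE annotates processed pseudogenes at least 95% identical over at least 300 nt to Rab5b and Rab2a, and it is not known how reads with several matches were counted.

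Rab genes of recycling endosomes and polarised delivery included 1 higher and 0 lower genes among 5 compared, against 12.5% and 16.7% of all genes. Rab11b, which returns cargo from recycling endosomes to the surface, had 433 counts in siDnmt1 and 160 in siScrambled, 2.71-fold higher (2.25 to 3.26). The related Rab11a had 14 and 6 counts and Rab25 had 0 and 4, and per kb of transcript Rab11b stood at 70.9 in siDnmt1 and 26.2 in siScrambled, against 5.99 and 2.57 for Rab11a. Rab8a, of delivery to the plasma membrane and the primary cilium, had 1754 counts in siDnmt1 and 1550 in siScrambled, a ratio of 1.13 (1.06 to 1.21). Rab35, which governs fast recycling and cytokinesis, had 236 and 351 counts, a ratio of 1.49 downward (1.26 to 1.76). Rab14 (109 and 114) and Rab10 (47 and 63), of the trans-Golgi and endosomes, had intervals that include equality. Rab12 had 8 counts in siDnmt1 and 0 in siScrambled, at least 2.67-fold higher against the floor. That leaves out the counting error of the 8, and the counting interval began at 1.71-fold. Rab15 (13 and 6), Rab8b (4 and 6), Rab4b (7 and 10) and Rab13 (0 and 1) were low in both libraries, and Rab4a had 0 in both.

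Among late endosomal, lysosomal and autophagy genes, 1 of 4 compared was at least 2-fold higher and 1 was lower, against 12.5% and 16.7% of all genes. Rab7 was the lower one, and the other 3 had more counts in siDnmt1, as did 3560 of all 7315 genes compared. Rab7, the GTPase of late endosomes and of their fusion with lysosomes, had 918 counts in siDnmt1 and 2378 in siScrambled, 2.59-fold lower (2.40 to 2.80). Rab24, an atypical Rab linked to autophagy, had 54 and 22 counts, 2.45-fold higher (1.47 to 4.23). Rab38, of lysosome-related organelles, had 184 and 110 counts (ratio 1.67, 1.31 to 2.14), and Rab39, of late endosomes, 68 and 45 (ratio 1.51, 1.02 to 2.25). Among the scarce genes, Rab32, the close relative of Rab38, had 2 counts in siDnmt1 and 19 in siScrambled, a ratio of 9.50 downward (2.29 to 84.1), and Rab9, of retrieval to the Golgi, 2 and 11. Rab7l1 had 13 and 6 counts and Rab34 had 0 and 1, while Rab9b, Rab39b and Rab42 had 0 in both.

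Both compared genes of regulated secretion lay within 2-fold, as did 5183 of all 7315 genes compared. Rab27a, of lysosome-related and exosome secretion, had 243 counts in siDnmt1 and 215 in siScrambled, and Rab3d, of secretory granules, 91 and 51 (ratio 1.78, 1.25 to 2.57). The other Rab3 genes were scarce, with Rab3a at 9 and 12 counts, Rab3b at 7 and 18 and Rab3c at 9 and 7. Rab26 had 4 and 1 counts and Rab44 had 0 and 1, while Rab27b and Rab37 had 0 in both.

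The lowest ratio of the Rab genes was that of Rab40c, whose product carries a SOCS box that recruits a ubiquitin ligase. It had 47 counts in siDnmt1 and 170 in siScrambled, 3.62-fold lower (2.60 to 5.11). Rab23, a negative regulator of Hedgehog signalling, had 86 and 55 counts (ratio 1.56, 1.10 to 2.23). Rab28, linked to cilia and photoreceptors, had 0 counts in siDnmt1 and 8 in siScrambled, at least 2.67-fold lower against the floor. That leaves out the counting error of the 8, and the counting interval began at 1.71-fold. Rab40b had 2 and 3 counts. The 7 Rab genes with 0 counts in both libraries may each hold up to 3 counts, a share of 2.45e-05% of the siDnmt1 and 2.57e-05% of the siScrambled total.

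**Figure D3:**
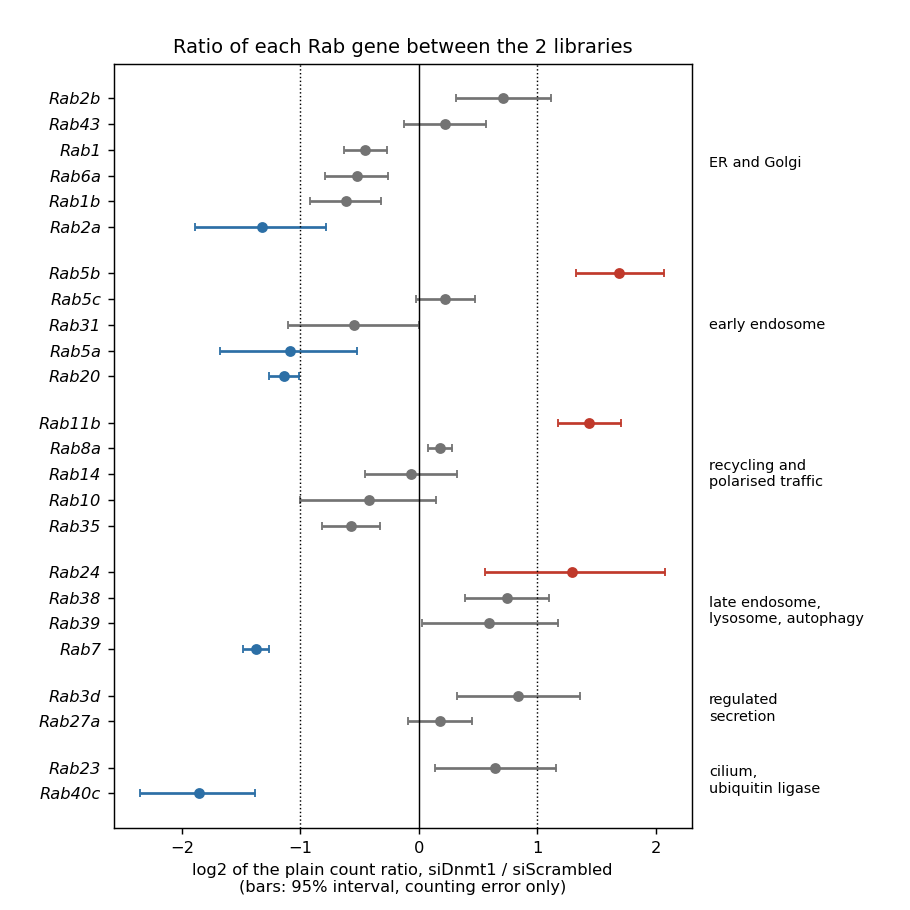
Log2 of the plain count ratio, siDnmt1 over siScrambled, with its 95% interval for counting error (bars) for the 24 Rab genes compared, by route, with dotted lines at 2-fold. Colour follows the ratio with 5 counts added (red at least 2-fold higher, blue at least 2-fold lower), and higher and lower genes occur side by side within the early endosomal and the late endosomal groups.

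How unusual a 2-fold difference is depends on the count. Of the 4 Rab genes averaging 500 counts or more, Rab7 and Rab20 were at least 2-fold lower, Rab1 and Rab8a were within 2-fold and 0 were higher. Among all 1696 genes of that level, 6.78% were lower and 8.55% higher by this much. Of the 12 Rab genes between 100 and 500 counts, 2 were higher and 1 was lower, against 9.85% and 14.5% of all genes at that level. Of the 8 between 20 and 100 counts, 1 was higher and 2 were lower, against 16.7% and 24.0%.

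Log2 ratios also went with transcript length over all genes. In the shortest 20% of genes (346 to 2330 nt) the median log2 ratio was -0.53 and 32.1% were at least 2-fold lower, whereas in the longest 20% the median was 0.18 and 8.18% were. Of the 24 Rab genes, 7 were among these shortest genes, including Rab20 (1392 nt), Rab2a (2133 nt) and Rab7 (2159 nt). With a smooth trend on length removed, Rab7 was at -1.15 and Rab40c at -1.68, still past 2-fold. Rab20 (-0.43), Rab2a (-0.99) and Rab5a (-0.96) were then within it. Rab5b was at 1.68, Rab24 at 1.51 and Rab11b at 1.25, and Rab38 (1577 nt) at 1.27 was past 2-fold on this scale and under no other alternative run. Removed on the median instead of the longest transcript length, the trend left the 3 higher and 5 lower genes as they were, with Rab20 at -1.03.

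**Figure D4:**
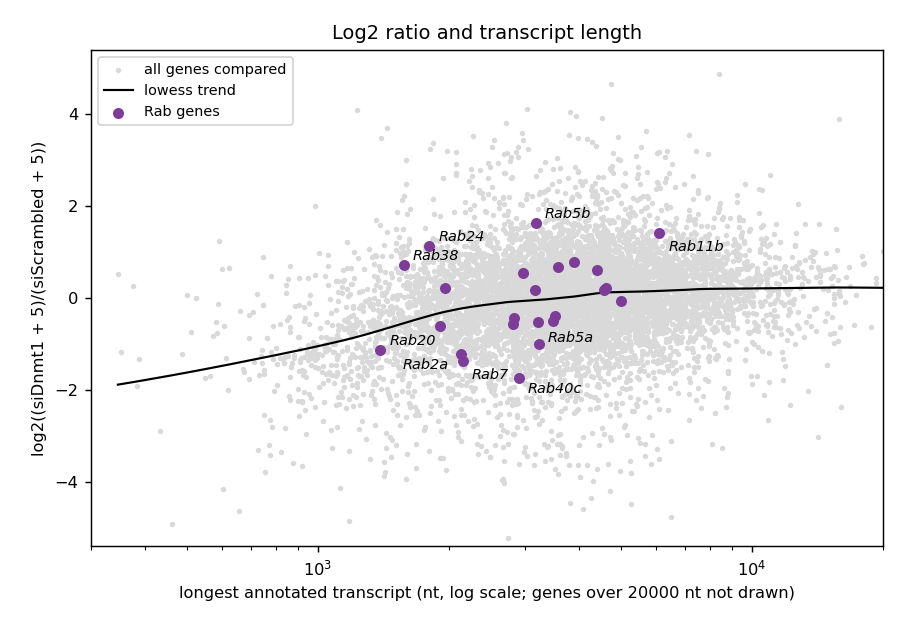
Log2 ratio of siDnmt1 over siScrambled (vertical axis) against the length of the longest annotated transcript (horizontal axis, log scale) for all genes compared with a length (grey) and the 24 Rab genes (purple), with the lowess trend as a line. Rab20 at 1392 nt lies near the trend, while Rab7, Rab40c, Rab5b, Rab11b, Rab24 and Rab38 lie more than 1 log2 unit from it.

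Genes that handle or switch Rab proteins were counted in 4 lists, which together held 108 genes compared. In them 18 genes (16.7%) passed 2-fold upward and 14 (13.0%) downward, against 12.5% and 16.7% of all genes. In the list of GDP dissociation, escort and prenylation genes, 1 of 7 was higher and 2 were lower. Both subunits of the enzyme that attaches geranylgeranyl groups to Rab proteins were the lower ones. Rabggta had 151 counts in siDnmt1 and 406 in siScrambled, 2.69-fold lower (2.23 to 3.26), and Rabggtb 38 and 162, 4.26-fold lower (2.98 to 6.24). Of the 2 escort protein genes, Chml had 74 and 26 counts, 2.85-fold higher (1.80 to 4.64), and Chm 217 and 159. The dissociation inhibitor gene Gdi2 had 3960 counts in siDnmt1 and 3537 in siScrambled, and the chaperone gene Rabif 49 and 59.

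GTPase-activating genes of the TBC family and their relatives had 9 of 26 at least 2-fold higher (34.6%, against 12.5% of all genes) and 2 at least 2-fold lower (7.69%, against 16.7%). Their median log2 ratio was 0.35. Tbc1d12 (51 and 14 counts), Rabgap1l (45 and 13), Sgsm1 (42 and 13) and Tbc1d9b (53 and 19) were the highest, at 3.64-fold, 3.46-fold, 3.23-fold and 2.79-fold, and each had few counts. At the other end Tbc1d14, which restrains autophagy, had 185 counts in siDnmt1 and 696 in siScrambled, 3.76-fold lower (3.19 to 4.45), and Sgsm3 137 and 461, 3.36-fold lower (2.77 to 4.10). Rabgap1 (329 and 574) and Tbc1d17 (168 and 281) followed within 2-fold. With 20 instead of 5 counts added, 3 of the 26 were higher, against 9.28% of all genes. Among genes averaging 100 counts or more 2 of 13 were, against 9.33%, so that both counts lay closer to the share over all genes. At a 4-fold threshold 0 were, against 2.64%. In contrast, 7 of the 26 were higher under equal totals and 7 with the length trend removed, against 11.1% and 12.9% of all genes. Under TMM factors 9 were, against 12.7%.

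Exchange factor genes had 4 of 34 higher (11.8%, against 12.5% of all genes) and 2 lower (5.88%, against 16.7%). Trappc11, of a TRAPP complex, had 668 counts in siDnmt1 and 266 in siScrambled, 2.51-fold higher (2.18 to 2.91). Dennd1b (111 and 42), Sbf1 (200 and 88) and Rab3ip (55 and 25), which encodes the Rab8 exchange factor Rabin8, were 2.64-fold, 2.27-fold and 2.20-fold higher, Rab3ip lying at the threshold itself with a log2 ratio of 1. Dennd3, of a Rab12 exchange factor, had 9 and 72 counts, 8.00-fold lower (3.99 to 18.2), and Dennd1a, of a Rab35 exchange factor, 116 and 285, 2.46-fold lower (1.97 to 3.08). Trappc12 (144 and 279) and Ankrd27 (42 and 83) were next. The Rab7 activators Mon1a (381 and 432), Mon1b (629 and 788) and Ccz1 (67 and 76), named for Rab7 after their values were seen, were within 2-fold, with ratios of 1.13 (0.986 to 1.30), 1.25 (1.13 to 1.39) and 1.13 (0.806 to 1.60) downward. The intervals of Mon1a and Ccz1 include equality.

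Effector genes had 4 of 41 higher (9.76%, against 12.5% of all genes) and 8 lower (19.5%, against 16.7%). Exoc6b, a form of the exocyst subunit that binds Rab11, had 208 counts in siDnmt1 and 30 in siScrambled (6.93-fold higher, 4.71 to 10.5). Golga5, a Golgi tether, had 254 and 91, 1700021K19Rik 146 and 54, and Ehbp1, a Rab8 and Rab10 effector, 30 and 10. Rims3 was listed with the other Rims genes, and whether its product binds a Rab was not checked. It had 0 counts in siDnmt1 and 131 in siScrambled, at least 43.7-fold lower against the floor. That leaves out the counting error of the 131, and the counting interval began at 35.0-fold. Rufy1, an endosomal effector of Rab4 and Rab14, had 3 and 88, a ratio of 29.3 downward (9.71 to 145). Rph3a (7 and 46), an effector of Rab3, and Rilpl1 (14 and 61) were also past 2-fold. Rab11fip1, an effector of the Rab11 group, was named after its values were seen, for its count. It had 137083 counts in siDnmt1 and 285136 in siScrambled, 1.79% and 3.48% of all counts without Rn45s, and was 2.08-fold lower (2.07 to 2.09). Rab11b, described above, differed in the opposite direction.

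**Figure D5:**
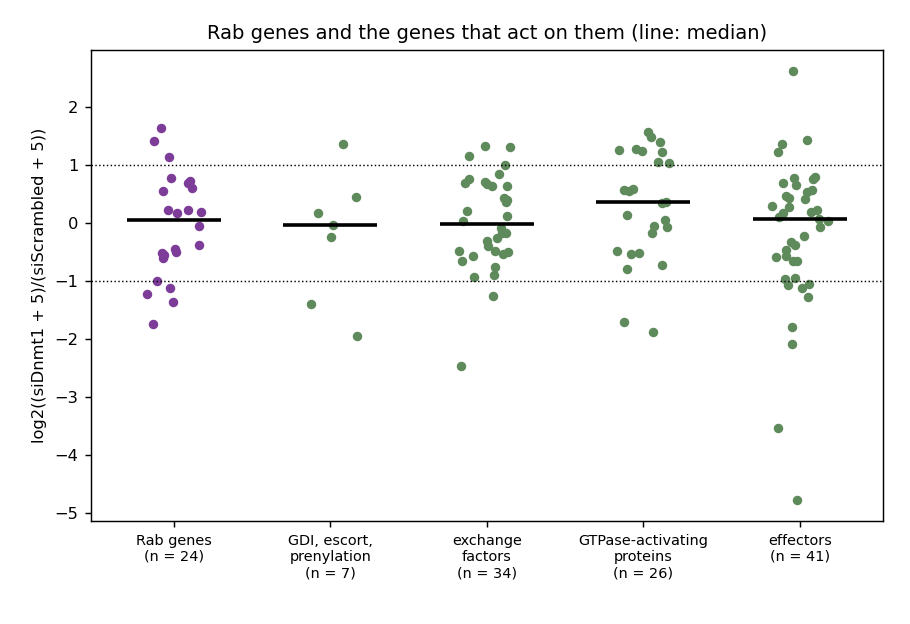
Log2 ratio of siDnmt1 over siScrambled for the Rab genes (purple) and for 4 lists of genes that act on them or with them (green), each point 1 gene and each line the median of its list, with dotted lines at 2-fold. The GTPase-activating list has the highest median, 0.35, and the medians of the others lie between -0.03 and 0.06.

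Some Rab counts are uncertain for reasons of annotation. In GENCODE, 9 of the 24 genes compared share exonic sequence with a gene on the opposite strand, and the sources used here do not say whether the authors counted by strand. The partner of Rab24, Prelid1, had 120 counts in siDnmt1 and 840 in siScrambled, the opposite direction to Rab24. That of Rab2b, Tox4, had 1556 and 1780, and that of Rab6a, Mrpl48, 43 and 69. Rab27a and Rab43 share exonic sequence with a gene on the same strand, Gm27186 and Gm45140. Processed pseudogenes near-identical to Rab2a, Rab5b, Rab6a, Rab7 and Rab11b are annotated, and their part in these counts was not tested.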

How the data were processed

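RNA-seq of 2 pools of 20 embryos was used. Bead-captured mRNA was turned into tagged cDNA, amplified by 20 cycles of PCR and sequenced from both ends, per the labels' protocols, which describe no molecular identifiers. The submitters' processing notes list DESeq2, HTSeq, HISAT2 and Trim Galore, without versions, and mm9 as genome build. The authors deposited 1 table of whole-number counts per gene symbol, described as DESeq2-normalised. Scaling and rounding would skip or pile up low whole numbers. Each column lacked 0 of the numbers 1 to 59, and the most frequent of 2 to 30, relative to its neighbours' mean, stood at 1.23 (siDnmt1) and 1.29 (siScrambled). The values were used as whole-number counts as deposited, although scaling very close to 1 would not show. DESeq2 size factors estimated from the table were 1 in both libraries, as they also would be in a table that was already normalised.

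With 1 library per group no test across genes can be fitted and no p-value is given. Ratios were computed for all rows, and the 7315 genes averaging at least 20 counts were compared. Named were Dnmt1, every Rab gene and the 4 highest and 4 lowest of each list. The Rab genes, lists and rules were chosen with earlier results of these data known. Transcript lengths (GENCODE M21, on GRCm38) were matched for 7270 genes, and all 24 Rab genes. Rab1 was matched to Rab1a, its present symbol, and Rab7l1 to Rab29. Near-identical transcripts were found with blastn 2.17.0+, and the lowess span was 0.3. The ratio and interval code was tested on simulated data. Alternatives were other pseudocounts, filters, scalings, thresholds and the removal of length trends. TMM factors came from edgeR 4.0.16 and size factors from DESeq2 1.42.0 in R 4.3.3, the rest from Python 3.11.15 with statsmodels 0.14.6 and scipy 1.17.1.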

Additional observations from a re-analysis of the deposited data

How the results depend on the processing

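Of the 12 alternatives, DESeq2 size factors were 1 in both libraries and so left every value as it was. The number of Rab genes at least 2-fold higher was 3. With no filter on low counts it became 5 of 51 (9.80%, against 12.4% of all genes), where Rab12 and Rab30 joined. With the length trend removed it became 4 of 24 (16.7%, against 12.9%), where Rab38 joined. At a 4-fold threshold it became 0, against 2.64% of all genes. It was 2, without Rab24, with a pseudocount of 20 (log2 ratio 0.82) and at a mean of at least 100 counts, which Rab24 does not reach. These were 8.33% and 12.5% of the Rab genes compared, against 9.28% and 9.33% of all genes. The number at least 2-fold lower was 5. It became 10 of 51 with no filter (19.6%, against 15.6% of all genes). At a mean of at least 100 counts it was 3 of 16 (18.8%, against 11.4%). With the length trend removed it was 2 of 24 (8.33%, against 14.0%), and at 4-fold it was 0, against 4.51%. It was 4, without Rab5a, under TMM factors, a median log2 ratio of 0, equal totals without Rn45s and a pseudocount of 20. That is 16.7% of the Rab genes compared, against 16.3%, 16.2%, 14.9% and 12.8% of all genes. The median log2 ratio of 0.06 changed sign with no filter (-0.19), under equal totals (-0.010) and with the length trend removed (-0.066). Rab7 and Rab40c were lower, and Rab5b and Rab11b higher, by at least 2-fold under every alternative but the 4-fold threshold. Regulators and effectors at least 2-fold higher numbered 18 of 108, against 10 with a pseudocount of 20, 7 at a mean of at least 100 counts and 1 at 4-fold. Over all genes these shares were 12.5%, 9.28%, 9.33% and 2.64%. Regulators and effectors lower numbered 14, against 22 with no filter, 8 at a mean of at least 100 and 4 at 4-fold. Over all genes these shares were 16.7%, 15.6%, 11.4% and 4.51%. The numbers with no filter and at a mean of at least 100 counts are not out of 108. With no filter, the prenylation, exchange, GTPase-activating and effector lists held 9, 53, 38 and 58 genes with a count. Of these, 4, 21, 13 and 29 reached a mean of 100. The difference in log2 ratio between Rab1 and Rab1b, 0.16, was -0.090 with the length trend removed. The other 4 paralog differences kept their sign wherever both genes could be compared. The trend on median transcript length was added after the data were seen. Fewer genes pass a stricter filter or threshold by construction, and the cause of the other changes was not tested. No paired analysis was possible because each group has 1 library, and for the same reason no replicate could be left out.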
